A study of Mus musculus with 24 samples.

Results

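The effect of gentamicin in the presence of pioglitazone was measured after 24 h of treatment, by comparing organ of Corti (OC) explants given both drugs (PIO+GM) with explants given pioglitazone alone (PIO). The comparison used 6 of the 24 RNA sequencing libraries of the series, 3 in each group, and covered all genes in the deposited table of counts. Explants were dissected from C57BL/6N mice of both sexes at 5 days of age, spent 24 h in medium with penicillin, and were then exposed to 10 μM pioglitazone with or without 50 μM gentamicin, so that pioglitazone was shared by both groups. Each library pooled 6 OCs and was read as single reads of 76 bases from total RNA, and the groups without pioglitazone at 24 h (CTRL and GM) and those sampled at 6 h are shown beside it. All 24 libraries shared 1 estimate of the spread in the test, on which the calls depended, since the 6 compared libraries alone gave 0 calls by edgeR's quasi-likelihood test, with 331 genes higher and 317 lower at an unadjusted p under 0.05. Because the explants hold hair cells, supporting cells, nerve, vessels and connective tissue together, fewer cells of a type and less RNA per cell cannot be told apart in these values. By microscopy, the study reports that nearly all hair cells survived in explants given both drugs at these doses. How those cell counts relate to the RNA values was not tested.

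Gentamicin is an aminoglycoside antibiotic that enters hair cells through their mechanotransduction channels and kills them, with outer hair cells, the cells that amplify sound, more sensitive than inner hair cells. Pioglitazone activates PPAR-γ, a nuclear receptor that regulates genes of lipid metabolism and can restrain inflammatory transcription. The comparison asks which transcripts still responded to the antibiotic when the agonist was present.

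Library totals ranged from 11961078 to 15548856 counts, at which 3 counts, taken as the smallest level that the depth can show, correspond to 0.193 to 0.251 CPM (counts scaled to library size). This floor, like the 95% intervals on ratios of counts given below, covers counting error only. Of 24454 genes, 16317 had enough counts to be tested. All 30 hair cell genes that were tested, including Myo7a and Otof, were read in every library, and their summed level lay between 897 and 1268 CPM in PIO+GM and between 960 and 1525 CPM in PIO, so the labelled tissue was present. Between 19140 and 21412 genes were detected by 1 count or more in PIO+GM libraries, and between 18164 and 19272 in PIO libraries. Counts on olfactory and vomeronasal receptor genes, which the OC is not known to use, ranged from 52.7 to 165.4 CPM in PIO+GM and from 39.5 to 76.3 CPM in PIO. Sex composition also differed, with the summed level of 4 Y-linked genes at 169.8 to 379.66 CPM in PIO+GM and 0.51 to 210.7 CPM in PIO. Libraries with the same replicate number deviated together from their group means. Values from a model with the replicate number as a block are therefore given for the genes named here wherever they changed a call.

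In explants that received pioglitazone, 11 genes rose with gentamicin (0.0674% of the 16317 tested) and 1 fell (0.00613%) (edgeR's quasi-likelihood test with Benjamini-Hochberg adjustment, threshold 0.05), which makes 12 calls (0.0735%). The genes that rose were Crx, Fer1l4, Ermap, Stpg3, Fut4-ps1, Trim17, Gm3336, Pnpla1, Itgae, Obox6 and Mc1r, and the gene that fell was Kcnj13. With the block, 18 genes passed (0.11%), of which 15 were higher (0.0919%) and 3 lower (0.0184%). Both models called 10 of these genes, Obox6 and Kcnj13 were called only without the block, and Scn4a, Lrrc10b, Pde4c, Ampd1, Sgk2, Tril, Slc26a5 and Pygm only with it. Without the block, Crx, Fer1l4, Ermap and Stpg3 passed whichever of the 6 libraries was left out, and the other 8 each lost the call without at least 1 library, with adjusted p of 0.0537 to 0.291.

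**Figure D1:**
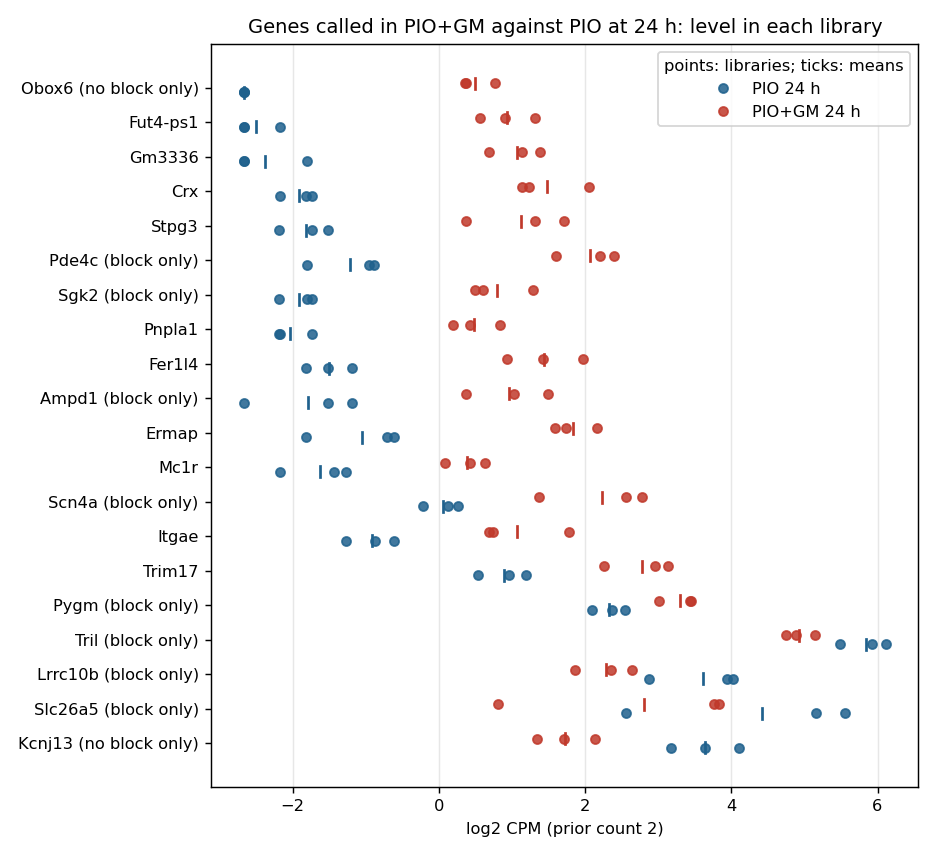
Level of the 20 genes called in PIO+GM against PIO at 24 h, in log2 CPM (prior count 2) on the horizontal axis, where blue points are the 3 PIO libraries, red points the 3 PIO+GM libraries and ticks the group means. The groups do not overlap except for Slc26a5, and 10 of the 11 genes raised without the block had at most 7 counts in every PIO library.

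Crx encodes a homeodomain transcription factor that is best known from photoreceptors. It had 31, 29 and 49 counts in PIO+GM against 2, 1 and 2 in PIO, or 2.75 ± 1.09 against 0.112 ± 0.0415 CPM (SD, n = 3). The groups were thus far apart, and the PIO libraries were all at or under the floor of 3 counts. The ratio of summed counts, scaled to library size, was 24.3 (95% interval 10.1 to 76.3), and the log2 fold change was 4.50 ± 0.50 (SE, adjusted p = 0.000173, edgeR).

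CRX binds DNA at TAATCC, which reads GGATTA on the other strand, and the 250 bases before the start of Crx itself hold this hexamer in 2 places. RefSeq promoter windows of this length were found for 13 of the 20 genes, and the hexamer was searched on both strands, whose forms can share bases where they adjoin. It occurred in the windows of 2 of the 13 genes, Crx and Tril, and in 6.25% of all 32851 windows, while 0.295% of all windows held it at least 2 times. The hexamer was chosen after Crx had been seen among the calls. The windows are printed for the 2 genes with the hexamer and, for contrast, for Fer1l4 and Kcnj13, which were raised and lowered and hold none (GRCm38.p6, 5′ to 3′ along the gene, hexamers in capitals).
Crx, chr7:15879956-15880205, minus strand: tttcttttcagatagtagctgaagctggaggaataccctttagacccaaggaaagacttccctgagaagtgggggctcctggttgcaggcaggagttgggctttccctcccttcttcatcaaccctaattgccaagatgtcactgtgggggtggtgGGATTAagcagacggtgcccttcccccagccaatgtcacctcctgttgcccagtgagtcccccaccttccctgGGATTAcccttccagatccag
Tril, chr6:53820826-53821075, minus strand: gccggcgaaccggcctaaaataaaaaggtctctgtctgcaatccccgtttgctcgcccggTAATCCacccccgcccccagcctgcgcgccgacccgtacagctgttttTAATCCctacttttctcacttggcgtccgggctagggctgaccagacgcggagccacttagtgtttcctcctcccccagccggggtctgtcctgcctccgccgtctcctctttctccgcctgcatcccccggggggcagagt
Fer1l4, chr2:156052994-156053243, minus strand: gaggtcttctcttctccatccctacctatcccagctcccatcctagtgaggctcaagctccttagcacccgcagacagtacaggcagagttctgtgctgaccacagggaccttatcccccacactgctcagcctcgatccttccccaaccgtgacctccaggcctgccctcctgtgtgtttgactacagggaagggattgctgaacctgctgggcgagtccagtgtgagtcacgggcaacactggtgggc
Kcnj13, chr1:87394730-87394979, minus strand: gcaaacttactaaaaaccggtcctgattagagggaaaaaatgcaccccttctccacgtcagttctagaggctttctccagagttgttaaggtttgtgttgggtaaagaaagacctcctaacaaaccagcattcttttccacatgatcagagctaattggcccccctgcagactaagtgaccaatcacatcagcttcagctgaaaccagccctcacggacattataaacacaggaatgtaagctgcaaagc

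Fer1l4, a gene of the ferlin family of membrane proteins, had 38, 23 and 46 counts in PIO+GM and 2, 3 and 4 in PIO, again without overlap. Its ratio was 13.2 (95% interval 6.72 to 29.7) and its log2 fold change 3.67 ± 0.41 (adjusted p = 0.000173). Ermap, an erythroid membrane protein of the butyrophilin-like family, was counted 43, 42 and 53 times in PIO+GM and 2, 7 and 7 times in PIO, a log2 fold change of 3.23 ± 0.40 (adjusted p = 0.000573). Stpg3, named for a repeat found in sperm tail proteins, had 35, 15 and 38 counts against 1, 3 and 2, a log2 fold change of 3.93 ± 0.55 (adjusted p = 0.00261). These 4 genes had the lowest p-values, and none exceeded 7 counts in a PIO library.

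Trim17, an E3 ubiquitin ligase linked to neuronal apoptosis, was the only gene raised without the block that was well above the floor in PIO. Its counts were 115, 61 and 105 in PIO+GM against 33, 20 and 25 in PIO, a log2 fold change of 1.99 ± 0.32 (adjusted p = 0.0108). Every PIO+GM library lay above every PIO library.

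Fut4-ps1 and Gm3336 were nearly absent without gentamicin. Fut4-ps1, a transcribed pseudogene of a fucosyltransferase whose reads may be shared with its parent gene, had 20, 31 and 21 counts in PIO+GM and 0, 1 and 0 in PIO, a ratio of 80.2 with a wide 95% interval of 13.9 to 3210 (adjusted p = 0.00344). Gm3336, a predicted protein-coding gene, had 22, 27 and 30 counts against 0, 2 and 0, a ratio of 44.0 (11.8 to 370, adjusted p = 0.0183). Obox6, an oocyte-specific homeobox gene of a family of close copies, had 17, 15 and 19 counts in PIO+GM and none in any PIO library, which makes it at least 6.38-fold higher relative to a floor of 3 counts per library. Its adjusted p was 0.0278 without the block and 0.0636 with it.

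Pnpla1, a lipase-family enzyme of the skin barrier, had 18, 13 and 20 counts in PIO+GM against 1, 1 and 2 in PIO (log2 fold change 3.69 ± 0.63, adjusted p = 0.0223). Itgae, the αE integrin of intraepithelial lymphocytes, had 22, 20 and 40 against 4, 6 and 7 counts (2.41 ± 0.43, adjusted p = 0.0278). Mc1r, the melanocortin receptor of pigment cells, had 18, 12 and 17 against 4, 1 and 3 counts (2.64 ± 0.47, adjusted p = 0.0278). All 3 kept their groups apart, at levels of few counts. Annotated genes overlap several of the called genes, on the opposite strand only for Itgae, Pnpla1, Kcnj13, Scn4a and Tril. The overlaps are on the same strand only for Ampd1 and on both strands for Mc1r and Trim17. Whether the counting used the strand is not given in the sources used here.

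Obox6 and Crx lie next to each other on chromosome 7, at 15833250 to 15839679 and 15865947 to 15879955 (GRCm38), with 26268 bp between them. Gm3336 and Pde4c lie 1200 bp apart on chromosome 8, at 70718495 to 70722635 and 70723835 to 70751186. Pde4c, a phosphodiesterase that degrades cyclic AMP, had 67, 38 and 62 counts in PIO+GM and 6, 2 and 5 in PIO, and its call depended on the block (log2 fold change 3.79 ± 0.72, adjusted p = 0.0501 without the block and 0.00743 with it). In both neighbouring pairs, both genes were higher in each PIO+GM library than in any PIO library.

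Kcnj13 encodes the inwardly rectifying potassium channel Kir7.1. It fell from 267, 137 and 172 counts in PIO to 47, 56 and 29 in PIO+GM, without overlap, a log2 fold change of -1.98 ± 0.36 (adjusted p = 0.0315, and 0.0653 with the block). The ratio of the groups was 0.255 (95% interval 0.21 to 0.309), so the depth was not what limited this value. For Kcnj13, leaving out PIO replicate 1, PIO+GM replicate 1, PIO replicate 3 or PIO+GM replicate 3 ended the call, with adjusted p between 0.106 and 0.291.

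Among the genes called only with the block, 3 are known from skeletal muscle. Scn4a, the muscle sodium channel, had 87, 32 and 82 counts in PIO+GM and 11, 16 and 13 in PIO (log2 fold change 2.46 ± 0.49, adjusted p = 0.0557, and 0.00533 with the block). Ampd1, the muscle AMP deaminase, had 40, 15 and 23 counts against 3, 0 and 4 (3.52 ± 0.68, adjusted p = 0.0543, and 0.0107 with the block). Pygm, the muscle glycogen phosphorylase, had 161, 104 and 132 counts against 88, 63 and 70, and was the smallest of the higher calls (0.99 ± 0.23, adjusted p = 0.186, and 0.0473 with the block). Since these names came out together, 26 other skeletal muscle genes were listed after the values had been seen, and 17 of the 18 that were tested had positive log2 fold changes, with a median of 0.68 against 0.00 for all genes. None was called. Neb, a giant protein of the thin filament, had 40, 49 and 66 counts in PIO+GM and 10, 21 and 16 in PIO (1.89 ± 0.53), Ttn, which spans the sarcomere, had 388, 399 and 450 against 157, 321 and 151 (1.15 ± 0.39), and Atp2a1, a muscle calcium pump, had 17, 6 and 29 against 4, 7 and 9 (1.52 ± 0.52), with unadjusted p of 0.00204, 0.00745 and 0.00863. The median of the muscle list fell to 0.33 without PIO+GM replicate 3 and to 0.23 with the olfactory receptor level as a covariate, and between GM and CTRL at 24 h it was -0.05. The list's summed level was 195.6 to 242.4 CPM in PIO+GM and 153.1 to 211.5 CPM in PIO, and its part in the muscle calls was not tested.

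The other genes called only with the block were Sgk2, Lrrc10b, Tril and Slc26a5. Sgk2, a kinase related to the serum and glucocorticoid regulated kinase, had 19, 18 and 28 counts in PIO+GM against 1, 2 and 2 in PIO (log2 fold change 3.75 ± 0.75, adjusted p = 0.0117 with the block). Tril, a leucine-rich repeat protein that works with Toll-like receptor 4, was well expressed, with 535, 389 and 326 counts in PIO+GM against 1079, 686 and 848 in PIO (-0.93 ± 0.19, adjusted p = 0.0557, and 0.0352 with the block). Lrrc10b, another leucine-rich repeat gene, had 92, 46 and 61 counts against 236, 111 and 225 (-1.40 ± 0.42, adjusted p = 0.657, and 0.00747 with the block). For Tril and Lrrc10b, every PIO+GM library was below every PIO library.

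At an unadjusted p under 0.05, 301 genes were higher (1.84%) and 122 lower (0.748%), the adjusted calls included, and 385 (2.36%) and 179 (1.1%) with the block. The higher ones were mostly of low level, with a median log2 CPM of -0.80 over the 6 libraries, compared with 2.27 for the lower ones and 4.51 for all tested genes. In 669 genes (4.1%) each PIO+GM library lay above each PIO library, and in 769 (4.71%) each lay below. Of the olfactory and vomeronasal receptor genes, 17 had enough counts to be tested, too few to read anything from their absence among these genes. With their summed level as a covariate, 7 genes were called, all of them among the 12, and with the Y-linked level as a covariate, 10 were called, of which 8 were among the 12.

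Among genes whose libraries did not overlap, those next in order of p on the lower side include several that did not pass the adjusted threshold in either model. Grk1, the rhodopsin kinase of photoreceptors, had 48, 67 and 38 counts in PIO+GM and 244, 211 and 192 in PIO (log2 fold change -1.92 ± 0.42, adjusted p = 0.122). Tafa3, a secreted chemokine-like protein of the nervous system, had 38, 36 and 46 against 185, 108 and 151 counts (-1.72 ± 0.34, adjusted p = 0.0557). Lrtm2 had 18, 34 and 18 against 101, 56 and 91 (-1.67 ± 0.35, adjusted p = 0.0903), and Sez6l, a neuronal membrane protein, had 52, 49 and 29 against 171, 97 and 147 (-1.54 ± 0.36, adjusted p = 0.182). The separation of the groups in these genes follows from the way they were chosen. Plscr5, of the scramblase family, had 7, 5 and 8 counts against 53, 21 and 59 (-2.57 ± 0.61, adjusted p = 0.196 by edgeR). 4930558C23Rik had 2, 0 and 1 against 19, 9 and 14, a ratio of 0.0795 (95% interval 0.0158 to 0.249, adjusted p = 0.222 by edgeR). Atp10d, listed as a transcribed pseudogene, had 80, 82 and 77 against 197, 148 and 133 (-0.84 ± 0.16, adjusted p = 0.0543), and the microRNA host gene Mirc35hg had 79, 66 and 71 against 247, 146 and 225 (-1.37 ± 0.34, adjusted p = 0.212).

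Most hair cell genes had lower values with gentamicin when pioglitazone was present, but 1 of them, Slc26a5, passed the adjusted test, and only with the block. Of 32 listed, 30 were tested and 24 had negative log2 fold changes, with a median of -0.46 against 0.00 for all genes and values from -2.00 to 0.44. In 21 of the 30 the PIO+GM library was below the PIO library in all 3 pairs, compared with 16.2% of all tested genes, and in none was it above in all 3 pairs, compared with 16.1% of all. At an unadjusted p under 0.05, 6 were lower and 0 higher, compared with 0.748% and 1.84% of all tested genes, and with the block 9 were lower, compared with 1.1% of all. These shares are descriptions, since the members were chosen with earlier results known. The mean log2 CPM of the list was 3.45, 3.01 and 3.69 in PIO+GM and 4.21, 3.51 and 4.20 in PIO, lower in each pair.

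**Figure D2:**
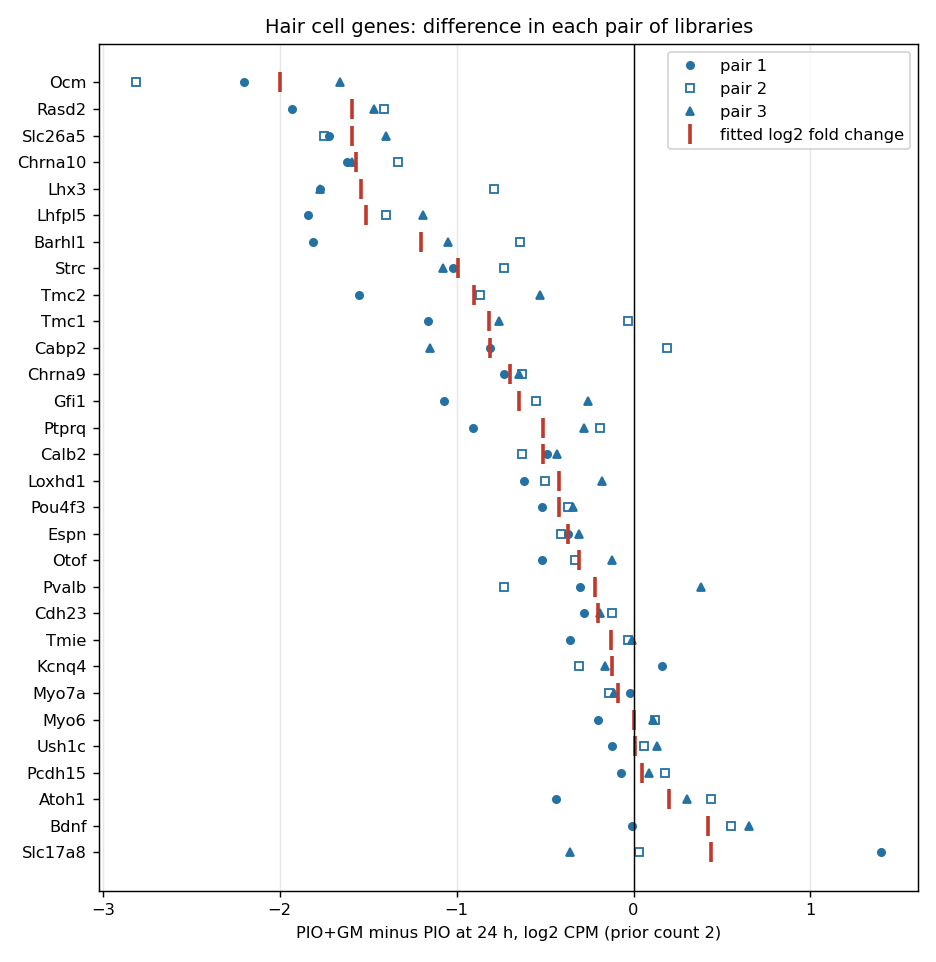
Difference between PIO+GM and PIO at 24 h, in log2 CPM with a prior count of 2, for the 30 hair cell genes tested, where each symbol is 1 pair of libraries with the same replicate number and red bars are the fitted log2 fold changes. Most symbols lie left of 0, with Ocm, Rasd2, Slc26a5, Chrna10, Lhx3 and Lhfpl5 farthest to the left and Myo7a near 0.

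Ocm, Slc26a5 and Chrna10, known from outer hair cells, were among the largest of these differences. Rasd2 (-1.59), Lhx3 (-1.54) and Lhfpl5 (-1.51) had differences of similar size. Slc26a5 encodes prestin, the motor protein of the outer hair cell, and had 213, 21 and 164 counts in PIO+GM and 727, 88 and 498 in PIO. Replicate 2 was low in both groups, and within each pair PIO+GM was lower, by -1.72, -1.75 and -1.40 in log2 CPM. The log2 fold change was therefore uncertain without the block (-1.59 ± 0.88, adjusted p = 1.00) and passed with it (-1.68 ± 0.30, adjusted p = 0.0371). Ocm, the calcium buffer oncomodulin of outer hair cells, showed the same shape, with 120, 3 and 100 counts against 577, 39 and 365 (-2.00 ± 1.02, adjusted p = 1.00, and 0.266 with the block). Chrna10, a subunit of the acetylcholine receptor through which efferent nerve fibres act on outer hair cells, had 133, 67 and 101 counts against 427, 200 and 352 (-1.57 ± 0.40, adjusted p = 0.286), and its partner subunit Chrna9 had 80, 17 and 58 against 138, 32 and 105 (-0.70 ± 0.56). Strc, which encodes stereocilin, a link between outer hair cell stereocilia, had 351, 154 and 268 against 735, 298 and 652 counts (-0.99 ± 0.38, adjusted p = 1.00).

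In the mechanotransduction apparatus, Lhfpl5, a subunit of the channel complex, had 56, 31 and 65 counts in PIO+GM against 213, 99 and 172 in PIO, and a log2 fold change of -1.51 ± 0.38 (adjusted p = 0.252). Tmc1, a pore-forming subunit, was at 134, 64 and 134 against 311, 76 and 261 counts, with overlapping groups (-0.82 ± 0.54), and Loxhd1, a stereocilia protein, at 477, 272 and 475 against 754, 449 and 614 (-0.42 ± 0.34). These 3 genes were lower in each pair, with a difference of -0.03 for Tmc1 in pair 2. Other genes of the apparatus lay closer to 0. Pcdh15 and Cdh23, which form the tip link, had 0.05 ± 0.33 and -0.20 ± 0.28, the channel subunit Tmie -0.13 ± 0.32 and the scaffold gene Ush1c 0.01 ± 0.37, while Tmc2, the early pore subunit, had -0.90 ± 0.55. Of these, Pcdh15 and Ush1c were lower in pair 1 only. Among transcription factors, Lhx3 had 16, 22 and 14 against 62, 46 and 60 counts (-1.54 ± 0.48, adjusted p = 0.713) and Barhl1 13, 24 and 21 against 53, 45 and 52 (-1.20 ± 0.35, adjusted p = 0.598), both without overlap, while the hair cell survival factors Gfi1 and Pou4f3 had -0.65 ± 0.31 and -0.42 ± 0.37. Rasd2, a small GTPase, had 70, 115 and 89 counts against 282, 359 and 285 (-1.59 ± 0.42, adjusted p = 0.308). Smaller differences were measured for other hair cell genes. Myo7a, an unconventional myosin of stereocilia present in inner and outer hair cells, had 1094, 737 and 848 counts in PIO+GM and 1146, 945 and 1048 in PIO (-0.09 ± 0.24), and Otof, the calcium sensor of the hair cell synapse, had 1441, 725 and 1483 against 2124, 1062 and 1847 (-0.31 ± 0.36). Positive values were measured for 6 genes of the list, none of them in all 3 pairs, and the highest were those of Slc17a8, the glutamate transporter of inner hair cell vesicles, with 334, 117 and 136 counts in PIO+GM against 129, 133 and 200 in PIO (0.44 ± 0.48), the neurotrophin Bdnf (0.42 ± 0.34) and Atoh1, which specifies hair cells (0.20 ± 0.58).

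The median of the hair cell list stayed between -0.65 and -0.29 when any 1 of the 6 libraries was left out, and was -0.45 without both replicate 2 libraries. Among 27 supporting cell genes, 12 were positive and the median was -0.05. The largest value there was that of Hes5, a Notch target that keeps supporting cells from becoming hair cells, with 19, 37 and 18 counts in PIO+GM against 90, 126 and 60 in PIO (-1.72 ± 0.77, unadjusted p = 0.0363).

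To see whether pioglitazone changed the response to gentamicin, the comparison was set beside that of GM with CTRL at 24 h, with which it shares no library. Without pioglitazone, 2 genes passed the threshold (0.0123%), Crx and Fer1l4, and 12 passed with the block (0.0735%). All 20 genes called with pioglitazone had the same direction without it, compared with 48.4% of all tested genes, and 17 of them had an unadjusted p under 0.05, compared with 1.67% of all. Of the 423 genes at an unadjusted p under 0.05 by edgeR with pioglitazone, 290 (68.6%) had the same direction without it. Over all tested genes, the log2 fold changes of the 2 comparisons correlated at a Pearson r of 0.13. Crx had 34, 45 and 51 counts in GM and 2, 0 and 3 in CTRL (log2 fold change 4.42 ± 0.50), a value close to the 4.50 with pioglitazone, and Obox6 had 23, 21 and 21 counts in GM and 0, 0 and 1 in CTRL. Kcnj13 had 41, 87 and 91 against 133, 218 and 171 counts (-1.41 ± 0.35), Grk1 31, 63 and 52 against 175, 284 and 171 (-2.25 ± 0.43), and Slc26a5 94, 10 and 258 against 496, 85 and 692 (-2.09 ± 0.89, adjusted p = 1). With the block, Slc26a5 was called without pioglitazone too (-2.21 ± 0.30, adjusted p = 0.00967), as were Lrrc10b (-1.24 ± 0.19, adjusted p = 1 without the block and 0.017 with it), Gm3336 (5.37 ± 0.77, 0.104 and 0.0112) and Trim17 (1.75 ± 0.31, 0.104 and 0.0441). The hair cell list had a median of -0.45, beside -0.46 with pioglitazone, but its members did not all have the same direction in both comparisons. Without pioglitazone, positive values were measured for Barhl1 (0.18 ± 0.34), Gfi1 (0.40 ± 0.31) and Pou4f3 (0.45 ± 0.37), which had negative values with it. The effect with pioglitazone minus that without it was -1.38 ± 0.49 for Barhl1, -1.05 ± 0.44 for Gfi1 and -0.87 ± 0.52 for Pou4f3, with unadjusted p of 0.0108, 0.0275 and 0.113 that did not pass after adjustment (adjusted p = 1).

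**Figure D3:**
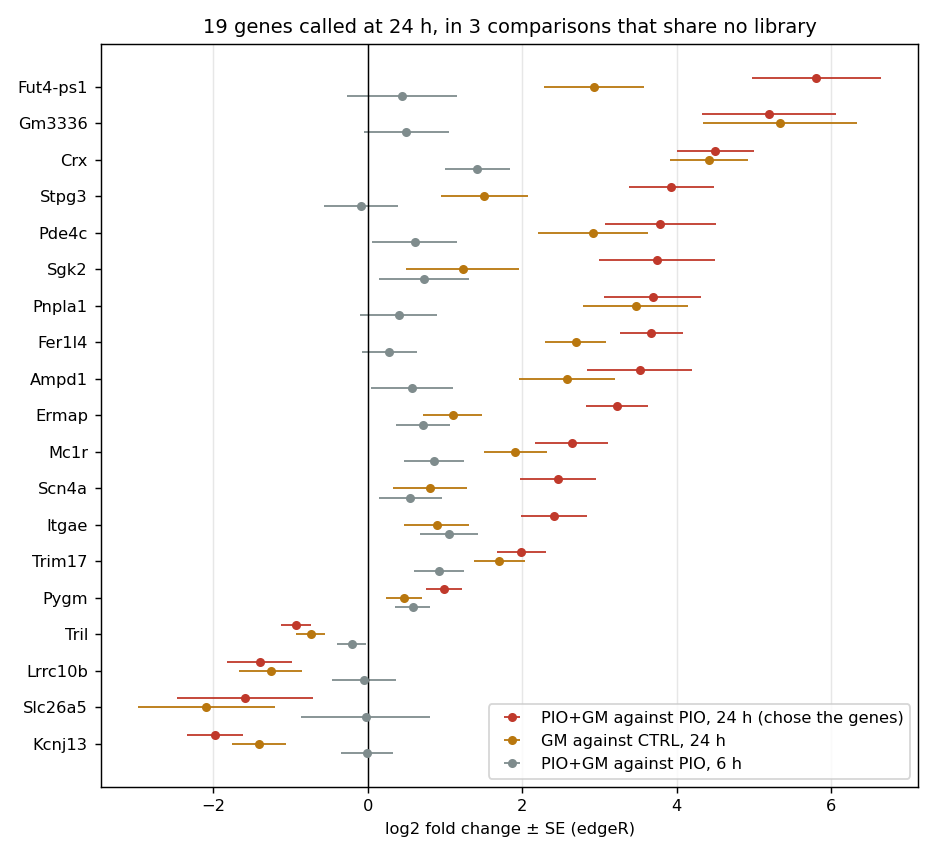
log2 fold change ± SE by edgeR for the 19 genes called at 24 h that had counts in PIO, in PIO+GM against PIO at 24 h (red, the comparison that chose them), GM against CTRL at 24 h (orange) and PIO+GM against PIO at 6 h (grey). Orange points lie on the same side of 0 as red ones for each gene, and grey points lie nearer to 0 except for Pygm and Itgae, where orange does.

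The test of the difference between the effects with and without pioglitazone called 0 genes (0%) by edgeR's quasi-likelihood test, with 197 at an unadjusted p under 0.05 (1.21%) and 0 called by DESeq2. The interval of the difference was wide for single genes. For Crx the effect with pioglitazone minus that without it was 0.08 ± 0.69 on the log2 scale, for Trim17 0.29 ± 0.46 and for Kcnj13 -0.56 ± 0.49. Ermap and Stpg3 had larger differences, of 2.13 ± 0.55 and 2.42 ± 0.84, with unadjusted p of 0.00104 and 0.00931 that did not survive adjustment (adjusted p = 1). In GM and CTRL, Ermap had 22, 22 and 28 against 13, 10 and 7 counts, so its level with gentamicin alone was between that of PIO and that of PIO+GM.

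At 6 h, PIO+GM against PIO called 0 genes (0%) by edgeR, with 499 at an unadjusted p under 0.05 (3.06%) and 1 called by DESeq2. Of the 20 genes called at 24 h, 19 had the same direction at 6 h, compared with 61.5% of all tested genes, and 5 an unadjusted p under 0.05. Crx was already apart, with 21, 14 and 16 counts in PIO+GM and 8, 7 and 6 in PIO (log2 fold change 1.42 ± 0.42, unadjusted p = 0.00327, adjusted p = 0.998). The difference between the effects at 24 and 6 h was called for 0 genes (0%) by edgeR's quasi-likelihood test and by DESeq2, with 247 at an unadjusted p under 0.05 (1.51%).

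The levels at 6 h are set beside those at 24 h as a description, since changes with culture time were not tested. Gm3336, Pde4c, Scn4a and Ampd1 had more counts at 6 h, in both groups, than in PIO at 24 h. Gm3336 had 27, 22 and 12 counts in PIO at 6 h and 0, 2 and 0 at 24 h, while PIO+GM had 29, 52 and 7 and then 22, 27 and 30. Scn4a went from 158, 119 and 130 counts in PIO at 6 h to 11, 16 and 13 at 24 h, and PIO+GM from 187, 302 and 89 to 87, 32 and 82. In these genes PIO+GM at 24 h thus lay between PIO at 24 h and the levels at 6 h, or near the latter. Grk1, which was not called, had the opposite order in PIO, from 59, 36 and 50 counts at 6 h to 244, 211 and 192 at 24 h, and stood at 31, 47 and 44 and then 48, 67 and 38 in PIO+GM. Kcnj13 had 149, 116 and 93 counts in PIO and 79, 110 and 123 in PIO+GM at 6 h, where the groups overlapped, and were separate at 24 h.

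**Figure D4:**
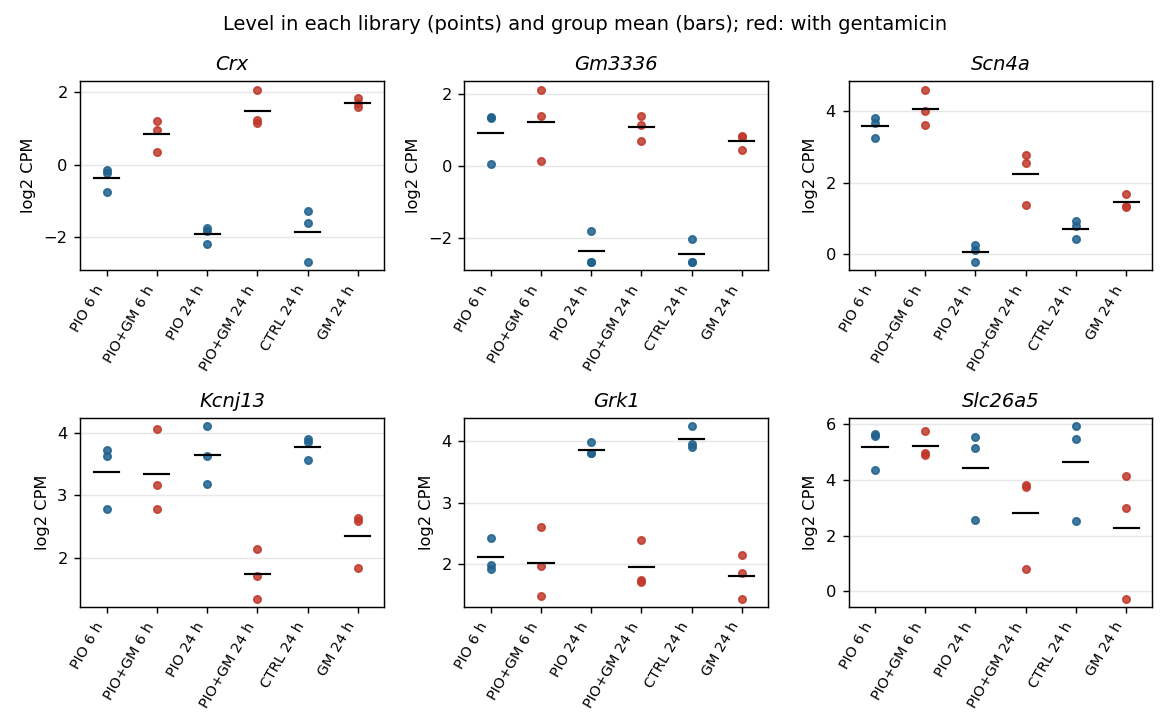
Level of 6 genes in each library (points) with group means (bars), in log2 CPM (prior count 2), in PIO and PIO+GM at 6 and 24 h and in CTRL and GM at 24 h, with gentamicin in red. Gentamicin separates the groups at 24 h in the same direction with and without pioglitazone for the first 5 genes, and replicate 2 of each 24 h group is low for Slc26a5.

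Interferon-induced antiviral genes had mostly positive values, whose size depended on 1 library. Of 47 tested, 42 had positive log2 fold changes, with a median of 0.33, and 0 were called, with 1 gene at an unadjusted p under 0.05. Without PIO+GM replicate 1 the median was 0.06. In 17 of the 47 the PIO+GM library was above the PIO library in all 3 pairs and in 0 it was below in all 3, compared with 16.1% and 16.2% of all tested genes. Between GM and CTRL at 24 h, 46 of the 47 were positive, with a median of 0.43. In PIO+GM against PIO at 6 h all 47 were positive, with a median of 1.25, and 39 had an unadjusted p under 0.05, compared with 3.06% of all tested genes, but 0 were called. Isg15, a ubiquitin-like modifier, had 39, 17 and 9 counts in PIO+GM and 14, 18 and 10 in PIO (0.74 ± 0.66), and Ifi44 had 76, 38 and 19 against 21, 35 and 21 (0.89 ± 0.66). Only replicate 1 of PIO+GM stood above the PIO libraries by more than a few counts for these genes. The same was seen for Mx1, named for an antiviral GTPase and listed as a transcribed pseudogene, with 42, 13 and 16 against 8, 11 and 18 counts (1.03 ± 0.74). It was also seen for Usp18, which removes ISG15 from proteins, with 112, 23 and 19 against 29, 28 and 38 (0.76 ± 0.73). In 3 of the 47 genes, compared with 4.1% of all tested genes, each PIO+GM library lay above each PIO library in log2 CPM. Among these, Epsti1 had the lowest p, with 8, 12 and 7 counts against 3, 6 and 2 (1.42 ± 0.50, unadjusted p = 0.0106). The transcription factor Irf7 was at 121, 82 and 43 against 75, 82 and 46 counts (0.40 ± 0.62).

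Chemokine and inflammatory genes were low in these explants, and 26 of the 31 tested were positive with a median of 0.15 and 0 calls. Cxcl10, a chemokine induced by interferons, had 89, 49 and 52 counts in PIO+GM and 6, 13 and 37 in PIO (1.86 ± 0.88, unadjusted p = 0.0484). Ccl5, a T cell chemokine, had 7, 5 and 2 against 0, 2 and 0 (ratio 7.79, 95% interval 1.79 to 70.7, unadjusted p = 0.0822 by edgeR). Cxcl1 had 15, 7 and 12 against 3, 6 and 2 (1.74 ± 0.99), and Ccl2, which attracts monocytes, 29, 14 and 8 against 5, 8 and 7 (1.45 ± 1.29). These 4 were among 6 of the 31 genes in which the lowest PIO+GM library was above the highest PIO library in log2 CPM, compared with 4.1% of all tested genes, and none passed the adjusted test. In PIO+GM against PIO at 6 h, the list's median was 0.39, and in GM against CTRL at 24 h it was -0.04.

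Genes of the Toll-like receptor and STAT pathways were evenly split, with 20 of 40 positive and a median of 0.01. Tlr2, Tlr4, Irf3 and Pias1, which the study follows, had log2 fold changes between -0.14 and 0.17, each smaller than its SE. Tlr9, the sensor of unmethylated DNA, had 19, 16 and 22 counts in PIO+GM and 7, 13 and 5 in PIO (1.34 ± 0.52, unadjusted p = 0.0186). Of the 18 genes of these pathways and of inflammation that the study names, 15 were positive, with a median of 0.17 and 0 calls. The study chose them on these samples, so their direction is not independent evidence.

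Complement and MHC genes included Ciita, the master regulator of MHC class II, with 9, 18 and 13 counts in PIO+GM and 2, 5 and 2 in PIO (2.27 ± 0.52, adjusted p = 0.159), and Hc, which encodes complement component C5, with 1, 6 and 14 against 0, 1 and 1 counts. The list as a whole had 23 of 29 positive and a median of 0.07. Macrophage genes had 17 of 22 positive and a median of 0.05, and their summed level was 134.4 to 407.5 CPM in PIO+GM and 135.6 to 388.2 CPM in PIO. The range of the macrophage level was thus nearly the same in both groups, and the part of macrophages in the complement and MHC values was not tested.

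Cell death and stress lists gave no call. Among 27 p53 targets, 17 were positive (median 0.03), with Pmaip1, which encodes the pro-apoptotic protein NOXA, at 12, 13 and 7 counts in PIO+GM against 4, 6 and 3 in PIO (1.42 ± 0.51, unadjusted p = 0.0112). BCL2 family and caspase genes had a median of -0.02 (13 of 30 positive), integrated stress and unfolded protein response genes 0.00 (19 of 38), heat shock genes 0.00 (10 of 20), NRF2 targets 0.00 (13 of 29) and lysosomal genes 0.02 (21 of 36). Genes of mitochondrial ribosomes were negative in 33 of 45 with a median of -0.07, and Mrps11, of the small subunit, had 172, 142 and 143 counts against 230, 236 and 210 (-0.42 ± 0.15, unadjusted p = 0.0131). All these medians lay close to that of all genes.

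PPAR-γ targets, the direct readout of a drug that both groups received, had 12 of 26 positive and a median of -0.01, and none reached an unadjusted p under 0.05. Ucp3, a mitochondrial carrier, had the lowest p-value of the list, with 16, 10 and 16 counts in PIO+GM against 35, 11 and 30 in PIO (-0.71 ± 0.48). Sterol and fatty acid synthesis genes had a median of -0.01 (13 of 29 positive).

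Candidate routes of aminoglycoside entry were split. Of 14 tested, which include the channel subunit gene Lhfpl5, 5 were positive and the median was -0.06, but 2 stood well above the rest. Trpv1, the capsaicin receptor channel, had 15, 12 and 14 counts in PIO+GM and 1, 8 and 1 in PIO (2.15 ± 0.65, adjusted p = 0.658 by edgeR). Slc5a2, a sodium-glucose transporter, had 4, 5 and 9 against 1, 1 and 1, a ratio of 6.68 (95% interval 1.95 to 35.4, adjusted p = 0.949 by edgeR). Without pioglitazone, GM against CTRL gave 0.08 ± 0.62 for Trpv1. The effect with pioglitazone minus that without it was 2.06 ± 0.91 (unadjusted p = 0.0346 by edgeR), which did not pass after adjustment.

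Among other cell types, Schwann cell genes were positive in 17 of 18 with a median of 0.33, which turned to -0.16 without PIO+GM replicate 1. The summed level of the Schwann cell list was 702.2 to 1948 CPM in PIO+GM and 871.1 to 1129 CPM in PIO. Spiral ganglion neuron genes were positive in 7 of 20 with a median of -0.22, with Nefl, a neurofilament, at 211, 249 and 153 counts against 241, 712 and 338 (-0.92 ± 0.74). Mesenchymal genes had a median of 0.12 (10 of 15 positive), endothelial and pericyte genes -0.04 (5 of 15), immediate early genes 0.00 (12 of 24) and cell cycle genes -0.08 (8 of 30). Cdc6, a licensing factor of DNA replication, had 106, 70 and 91 counts against 66, 62 and 56 (0.68 ± 0.18, adjusted p = 0.336), without overlap in log2 CPM. Col1a1, the main collagen of connective tissue, was at 494, 249 and 195 counts in PIO+GM and 247, 3265 and 315 in PIO, so that PIO replicate 2 alone set its fold change of -1.89 ± 0.94.

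**Figure D5:**
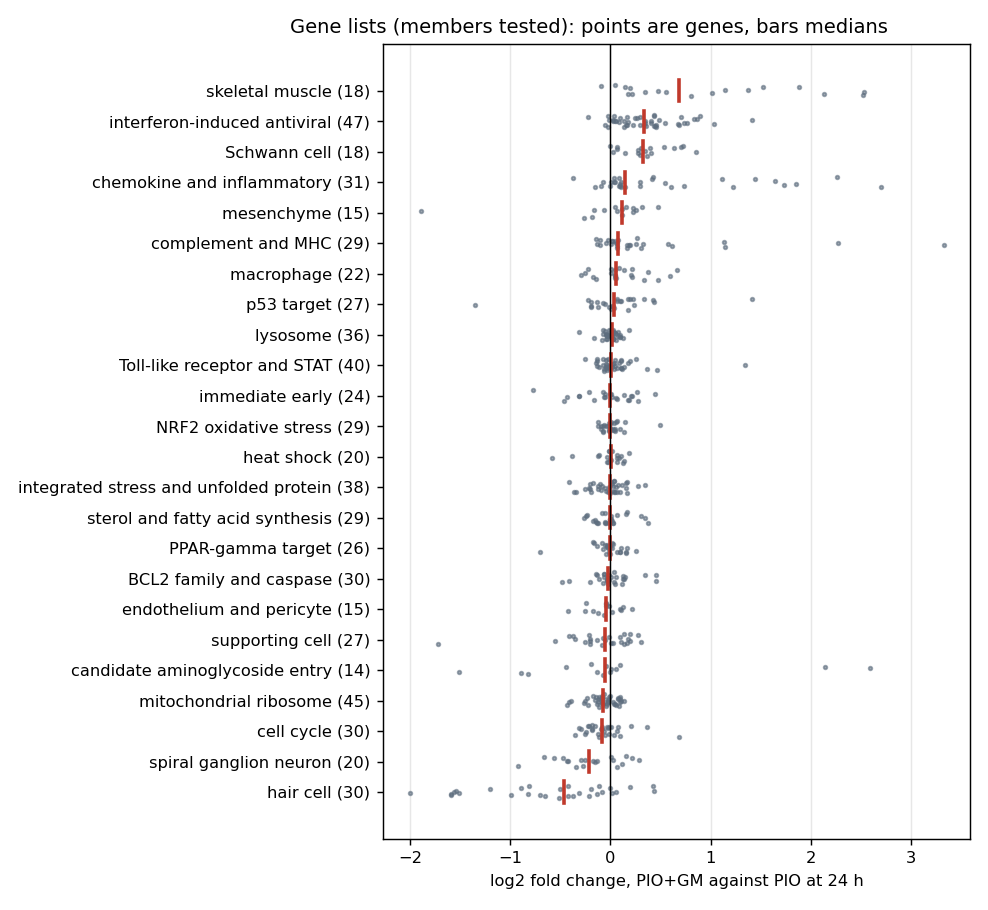
log2 fold change of PIO+GM against PIO at 24 h for each tested gene (points) of each gene list, with list medians (red bars) and the number tested in brackets. Hair cell genes have the lowest median and skeletal muscle genes, a list added after the values were seen, the highest, while most pathway lists centre on 0.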

How the data were processed

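RNA was extracted from pools of 6 organs of Corti, libraries were made with a stranded total RNA kit, and reads were aligned to mm10 with STAR, per the labels and the submitters' processing notes, and counted per gene over RefSeq exons with QuasR, per the study's methods. The deposited values are raw counts that the authors did not normalize, in 24454 genes (80 without a symbol). The study's methods give the versions of these tools. Whether strand was used and how multi-mapping reads were counted is not given in the sources used here. No column of per-sample values was left unused.

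All 24 libraries entered 1 edgeR fit (edgeR 4.0.16, R 4.3.3) with group means, TMM factors and filterByExpr, which left 16317 genes, and the quasi-likelihood test was adjusted over these by Benjamini-Hochberg at 0.05. Genes without a PIO count have no fold change. SEs were derived from the fold change and its F statistic, and log2 CPM used a prior count of 2. Intervals of count ratios are exact at 95% and, like the floor of 3 counts, cover counting error only. Depth was 11961078 to 15548856 counts in the 6 libraries compared. Alternatives used DESeq2 1.42.0, other filters, scalings and sets of libraries, and covariates. The steps were also run on simulated counts, with an outcome that is not given here. The simulated libraries were independent, without replicate pairing, GC trend or sex imbalance, so that run cannot bear on these features.

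Replicate numbers come from the sample titles. Deviations from the group means of same-numbered PIO+GM and PIO libraries correlated at 0.322, 0.786 and 0.563 over 12691 genes, and those of differently numbered libraries at -0.737 to 0.485, with PIO+GM replicate 3 and PIO replicate 1 at 0.485 and PIO+GM replicate 1 and PIO replicate 3 at 0.189. As all 3 same-number values were over 0.1, the numbers were taken to pair the libraries, with the replicate number within each time point as a block (6 blocks). The labels speak of triplicates and do not name separate litters, so p-values measure the spread between these libraries, which may be technical.

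The genes named were every call, the 12 in each direction with the lowest p among genes whose libraries do not overlap, the genes the study names, the 3 lowest p of each other list and fixed hair cell genes. Beyond this rule, the calls made only with the block and further hair cell genes and the skeletal muscle list were chosen after their values were seen. The members and lists were chosen with earlier results of these data known. Promoter windows are from RefSeq (GRCm38.p6), and overlaps from GENCODE (GRCm38). The deposited table's gene length column enters no value printed here. Some genes of the lists are not reported here by name.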

Additional observations from a re-analysis of the deposited data

How the results depend on the processing

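The 12 calls of PIO+GM against PIO at 24 h became 20 without a filter on low counts, 1 with at least 10 counts in every library, 35 with DESeq2, 56 with edgeR's likelihood ratio test and 0 with the 6 compared libraries alone. Chosen after seeing the data, the olfactory receptor covariate gave 7, removal of a GC trend together with the replicate block 21, and leaving out both replicate 2 libraries 4. Fold changes correlated with transcript GC content at a Spearman rho of -0.332 across genes. Leaving out 1 library gave 4 to 17 calls, with 5 without PIO replicate 1, 7 without PIO+GM replicate 1, 4 without PIO replicate 3 and 5 without PIO+GM replicate 3. With the replicate block, which takes same-numbered libraries as pairs, there were 18, and the values where it changed a call stand in the report. PIO+GM replicate 3 correlated more with PIO replicate 1 (0.485) than PIO+GM replicate 1 did (0.322), so this pairing is uncertain. For the difference between the 24 h and 6 h effects, the likelihood ratio test called 6 genes, and leaving out 1 library 0 to 1. For the difference with and without pioglitazone, leaving out 1 library gave 0 to 0.

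Genes higher at an unadjusted p under 0.05 numbered 991 without a filter and 60 with at least 10 counts in every library, and 154 (without PIO+GM replicate 3) to 356 with 1 library left out. Lower genes numbered 260 with the 12 libraries of 24 h, 317 with the 6 compared, 195 with the GC trend removed and 305 with this and the replicate block, and 95 to 145 with 1 library left out. The hair cell median stayed between -0.65 and -0.29 with 1 library left out. Fold changes turned direction when 1 library was left out for Myo7a (-0.17 to 0.02, positive without PIO+GM replicate 2), Usp18 (-0.36 to 1.11, negative without PIO+GM replicate 1), Slc17a8 (-0.05 to 0.73, likewise), Atoh1 (-0.14 to 0.52, negative without PIO+GM replicate 2), Pcdh15 (-0.10 to 0.20, negative without PIO+GM replicate 1 or PIO replicate 2), Ush1c (-0.24 to 0.26, negative without either of these or PIO+GM replicate 3) and Col1a1 (-2.38 to 0.23, positive without PIO replicate 2). They also turned for Col1a1 (0.35) and Atoh1 (-0.01) without both replicate 2 libraries, for Irf3 (0.02), Pcdh15 (-0.08) and Ush1c (-0.21) with the olfactory receptor covariate, and for Pcdh15 with the GC trend removed, without or with the replicate block (-0.00 in both). The cause was not tested for these changes. Of 1546 values of 79 genes under 20 alternatives, 1391 kept their direction and side of the threshold. Crx, Fer1l4, Ermap and Stpg3 passed in 18 of 19 alternatives that gave a value, the 6 libraries alone being the exception, and Obox6 in 8 of 19. Low counts in PIO limit the precision of most higher calls.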
